A study of Mus musculus with 2 samples.

Results

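Antimicrobial peptides and proteins of the skin were examined in 10 genes, chosen by gene symbol, with all probe sets that the platform annotation gives to these symbols. They were the beta-defensins Defb1, Defb3, Defb4, Defb6 and Defb8, the cathelicidin gene Camp, and Lcn2, Slpi, Pglyrp1 and Ltf. They had 11 of the 45101 probe sets and were 10 of the 18194 genes with a symbol of their own. Defb1 had 2 probe sets and the other 9 genes had 1 each.

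RNA came from 2 structures of the hair follicle of 21-day-old C57Bl6 mice, cut by laser from frozen, eosin-stained skin. The bulge, the part of the outer root sheath where follicle stem cells reside, was hybridised to 1 array. The hairshaft was hybridised to 1 array. Both groups share strain, age and preparation, and 30 ng of total RNA was amplified for each. No treatment or engineered allele is named in the labels, and whether animals were pooled is not given in the sources used here. There were no replicates, so every value is a single measurement on the log2 GCRMA scale, no test was possible, and the small number of arrays limits precision. A background floor was set at 2.68 on both arrays, the 95th percentile of the values of 80 olfactory and vomeronasal receptor probe sets, genes that skin is not expected to express.

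The labels were checked against marker genes. Of 11 bulge markers, 9 differed by 2-fold or more towards the bulge array, with a median log2 difference of 1.79. The hair shaft keratins went against the label of the hairshaft array. Of 9 such keratins above the floor, 6 differed by 2-fold or more towards the bulge array, and the summed linear signal of all 10 measured was 396 in bulge RNA and 72.3 in hairshaft RNA. The names bulge array and hairshaft array therefore follow the labels only. In dissected tissue, fewer cells of a type and less RNA per cell cannot be told apart.

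Antimicrobial peptides are small cationic proteins that disrupt microbial membranes, and epithelia that meet microbes make them as part of innate defence. Beta-defensins are held in shape by disulphide bonds and lie in gene clusters, of which the main mouse cluster is on chromosome 8. Other members act differently. Lipocalin-2 binds bacterial siderophores and lactoferrin binds iron itself, which starves microbes, while a peptidoglycan recognition protein binds their cell wall. Hair follicles open to the skin surface and harbour microbes, and their upper part is a known site of antimicrobial gene expression.

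Defb6, a beta-defensin first described in mouse skeletal muscle and also made by upper follicle keratinocytes, was bright on both arrays. It had 14.31 in bulge RNA and 11.74 in hairshaft RNA. The bulge array was thus higher by 2.57 on the log2 scale, or 5.93-fold. Among the 13329 genes above the floor, 516 had a larger difference towards the bulge. Array signals this bright may be compressed.

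Lcn2, the siderophore-binding lipocalin of keratinocytes and neutrophils, was dim on both arrays. It had 5.49 in bulge RNA and 3.51 in hairshaft RNA. The log2 difference was 1.98, or 3.94-fold, and 729 genes had a larger one towards the bulge. The hairshaft value lay below a stricter floor at the receptors' 99th percentile (4.21), with which the log2 difference was 1.28.

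Defb1, the beta-defensin that many epithelia make without stimulation, was under 2-fold apart. Its brighter probe set had 9.81 in bulge RNA and 10.33 in hairshaft RNA, a log2 difference of -0.53 (1.44-fold). The other had 9.56 in bulge RNA and 9.95 in hairshaft RNA, a log2 difference of -0.40 (1.32-fold). Both probe sets were thus lower in the bulge, by less than 2-fold. The log2 difference of Defb6 exceeded that of Defb1 by 3.09, so these defensins did not differ between the arrays by the same amount.

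The other 7 genes had exactly the same deposited value on both arrays. Slpi, a secreted inhibitor of leukocyte proteases that also kills bacteria, had 4.14 on each. Defb3, a beta-defensin induced by infection in mouse epithelia, had 3.63 on each, and Camp, which encodes the cathelicidin peptide, had 3.20. These 3 lay above the floor. Pglyrp1, a peptidoglycan-binding protein of neutrophil granules, had 2.49, the lactoferrin gene Ltf and the inducible beta-defensin Defb4 each had 2.24, and Defb8 had 2.23. These 4 lay below the floor on both arrays, so no fold is given for them.

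**Figure D1:**
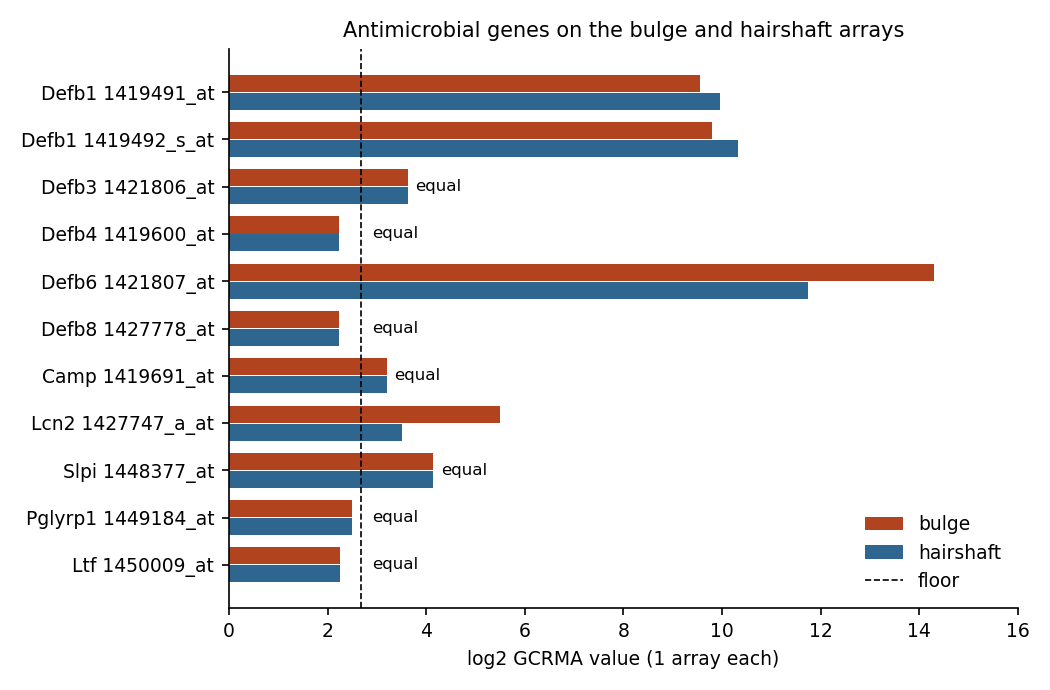
Log2 GCRMA value of the 11 probe sets (horizontal axis) on the bulge array and the hairshaft array, 1 array each, so the bars carry no error; the dashed line is the floor of 2.68 and "equal" marks probe sets with the same value on both arrays. Defb6, Lcn2 and Defb1 differ between the arrays, and the other 7 genes have equal values.

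Equal values were common among dim probe sets. Of all probe sets, 17293 (38.3%) had exactly the same value on both arrays, and so did 74 of the 80 receptor probe sets (92.5%). Between 3 and 4 on the brighter array, where Defb3 and Camp lie, 30.2% of 4333 probe sets were equal. Between 4 and 5, where Slpi lies, 12.2% of 2881 were equal. Above 8 on either array the share was 0.350%. An equal value is therefore reported as no measured difference, and not as equal expression; its cause was not tested.

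**Figure D2:**
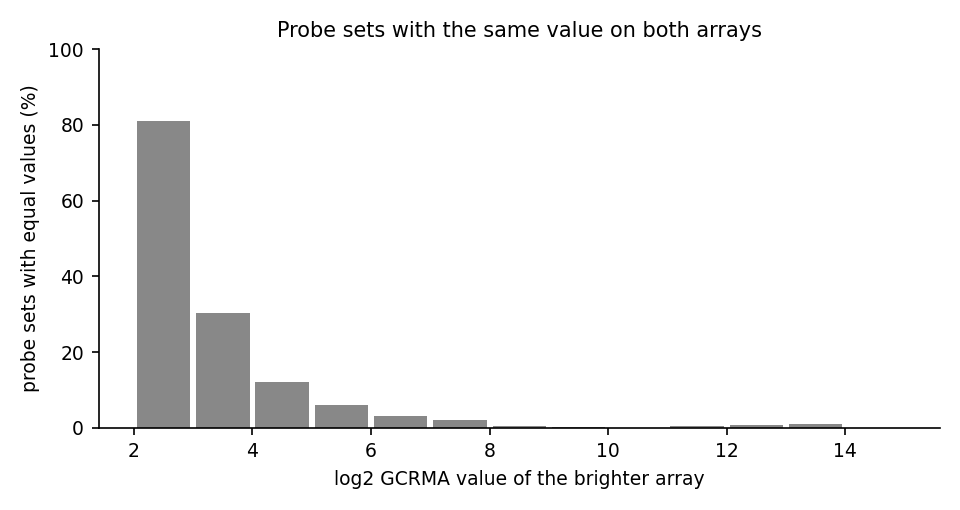
Percent of probe sets with exactly the same value on both arrays (vertical axis) by the log2 GCRMA value of the brighter array (horizontal axis, bins of 1). The share is 81.1% between 2 and 3, 30.2% between 3 and 4 and 12.2% between 4 and 5.

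In all, 2 of the 10 genes, Defb6 and Lcn2, differed by 2-fold or more towards the bulge. They were 2 of the 6 members above the floor, and 11.4% of all genes above the floor differed as much. Towards the hairshaft, 0 of these 6 did, and 4.91% of all genes above the floor. The numbers are too small for the share to be read as a property of the group. Of the 12179 genes above the floor whose value was unequal between the arrays, 12.5% differed this much towards the bulge and 5.38% towards the hairshaft.

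**Figure D3:**
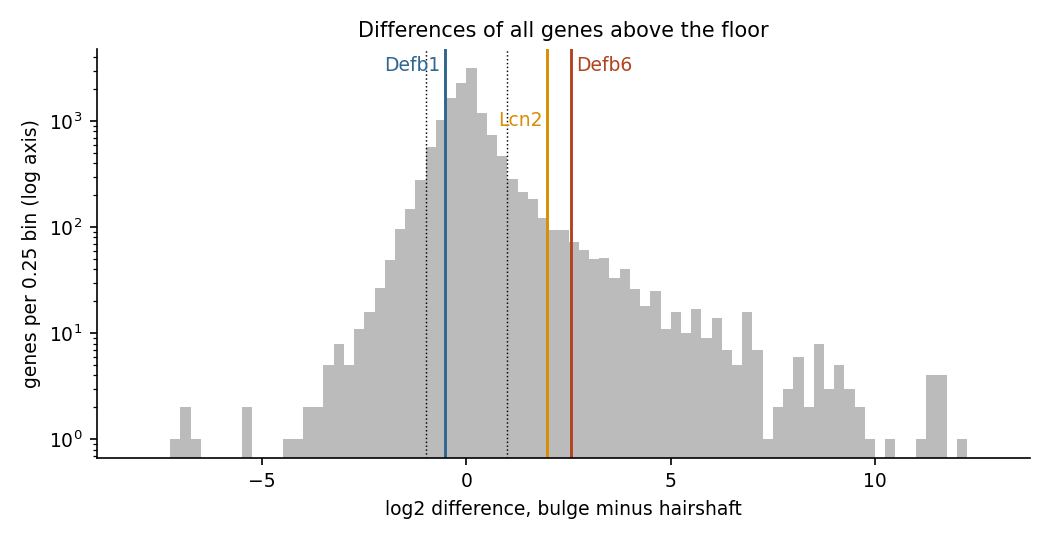
Number of genes (vertical log axis) by log2 difference, bulge minus hairshaft (horizontal axis, bins of 0.25), for the 13329 genes above the floor; dotted lines mark 2-fold. Defb6 (2.57) and Lcn2 (1.98) lie in the long flank towards the bulge and Defb1 (-0.53) lies within the central peak.

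The promoters of Defb6 and Lcn2 are shown because these are the members that differed by 2-fold or more. They are RefSeq sequences of GRCm38.p6, from 250 bases before to 50 after the start of the gene, read 5′ to 3′ on the gene's strand. RefSeq promoters matched 8 of the 10 genes. The array table names no genome build. Capitals mark every match, on either strand, of GGG and CC with 5 bases of any kind between them, a loose form of the site bound by NF-kB, the factor that many microbial and inflammatory signals activate.
Defb6, chr8:19225228-19225527, plus strand: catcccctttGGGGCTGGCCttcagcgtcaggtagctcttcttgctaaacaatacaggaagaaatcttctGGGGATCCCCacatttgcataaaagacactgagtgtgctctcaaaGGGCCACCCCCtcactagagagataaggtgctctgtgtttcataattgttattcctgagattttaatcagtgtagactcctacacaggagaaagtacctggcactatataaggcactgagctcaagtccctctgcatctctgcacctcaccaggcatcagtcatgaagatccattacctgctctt
Lcn2, chr2:32387690-32387989, minus strand: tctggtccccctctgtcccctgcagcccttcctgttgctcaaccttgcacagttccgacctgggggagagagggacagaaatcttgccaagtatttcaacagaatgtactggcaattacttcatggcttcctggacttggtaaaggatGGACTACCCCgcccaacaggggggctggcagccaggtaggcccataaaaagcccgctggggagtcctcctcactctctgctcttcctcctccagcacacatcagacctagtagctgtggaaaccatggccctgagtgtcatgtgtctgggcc

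The Defb6 promoter held 6 matches of this motif when both strands were counted, several of them overlapping, and the farthest began at -240 from the start. The Lcn2 promoter held 1, on the opposite strand, at -102. Among the members with equal array values, Ltf held 4, Camp 3, Defb3 2, Pglyrp1 1, and Defb8 and Slpi 0. The letters are loose, and 50.8% of the 32851 promoters in the table held at least 1 match on either strand. Neither the letters TATAAA, a strict form of the TATA box present in 13.6% of promoters, nor TGANTCA was found in the 8 windows. TGANTCA is a site of the AP-1 factors and was present in 7.81%. Looser forms of the TATA box were not searched, so the search does not show that these promoters lack one. A match is a string of letters and not a measured site.

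The other beta-defensin genes on the array were close to background. Of 15 other beta-defensin genes on the array, 3 were above the floor, none was 2-fold apart, and 11 had equal values. Defb41 had 2.94 in bulge RNA and 3.22 in hairshaft RNA, Defb2 had 2.82 in bulge RNA and 2.84 in hairshaft RNA, and Defb45 had 3.13 on both. The median difference of these 3 was -0.02, and that of all genes above the floor was 0. In the RefSeq gene order, Defb4 lies next to Defb6 on one side, and on the other side Defb5 is the nearest measured gene. Defb14, beyond Defb4, and Defb46, between Defb6 and Defb5, were not measured. Defb5 had 2.25 on both arrays. The measured neighbours of Defb6 thus lay below the floor where Defb6 itself was bright on both arrays.

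Other antimicrobial effectors of skin were divided between the arrays. Of 19 measured, 14 were above the floor. By 2-fold or more, 3 of these differed towards the bulge and 3 towards the hairshaft, the other 8 lay within 2-fold, and the median difference was 0.47. Among all genes above the floor, 11.4% differed as much towards the bulge and 4.91% towards the hairshaft. These shares also stand beside the counts of the lists that follow. S100a8 and S100a9 encode the subunits of calprotectin, which withholds zinc and manganese from microbes. S100a8 had 9.40 in bulge RNA and 6.59 in hairshaft RNA, 7.003-fold higher in the bulge. S100a9 had 9.46 in bulge RNA and 7.10 in hairshaft RNA, 5.15-fold higher in the bulge. Each is measured by 1 probe set, and both stand beside Defb6 and Lcn2 as higher in the bulge.

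Among relatives of Slpi with a whey acidic protein domain, the direction was mixed. Wfdc3 had 6.98 in bulge RNA and 3.11 in hairshaft RNA, a log2 difference of 3.86 that was 1.93 with the mean of its probe sets, since its other probe set was equal on both arrays. Wfdc21 had 11.12 in bulge RNA and 12.57 in hairshaft RNA, 2.74-fold higher in the hairshaft. Wfdc5 had 8.06 in bulge RNA and 9.18 in hairshaft RNA, 2.17-fold higher in the hairshaft. Wfdc12 had 3.97 in bulge RNA and 4.79 in hairshaft RNA, under 2-fold apart.

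Ang, the ribonuclease angiogenin, had the largest difference of the list. Its brightest probe set was below the floor in the bulge (2.49) and at 9.30 in the hairshaft, at least 98.6-fold higher in the hairshaft. Its probe sets did not give the same size. The plain probe set had 5.15 in bulge RNA and 6.36 in hairshaft RNA, a log2 difference of -1.21, and the mean of all its probe sets gave -4.28. Ribonucleases of this family resemble each other in sequence, so these values are uncertain. Rnase4, which shares a promoter region with Ang in mouse, had 11.98 in bulge RNA and 12.42 in hairshaft RNA.

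Lysozyme, which cleaves bacterial cell walls, was under 2-fold apart. Lyz2 had 10.74 in bulge RNA and 10.01 in hairshaft RNA, and Lyz1, whose near-identical sequence makes the split between them uncertain, had 12.58 in bulge RNA and 11.86 in hairshaft RNA. The only plain Lyz1 probe set had the same value, below the floor, on both arrays. The lectins Reg3a and Reg3g had the same value, below the floor, on both arrays. Reg3b had 3.56 in bulge RNA and 2.73 in hairshaft RNA, under 2-fold apart, and both values lay below the stricter floor.

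**Figure D4:**
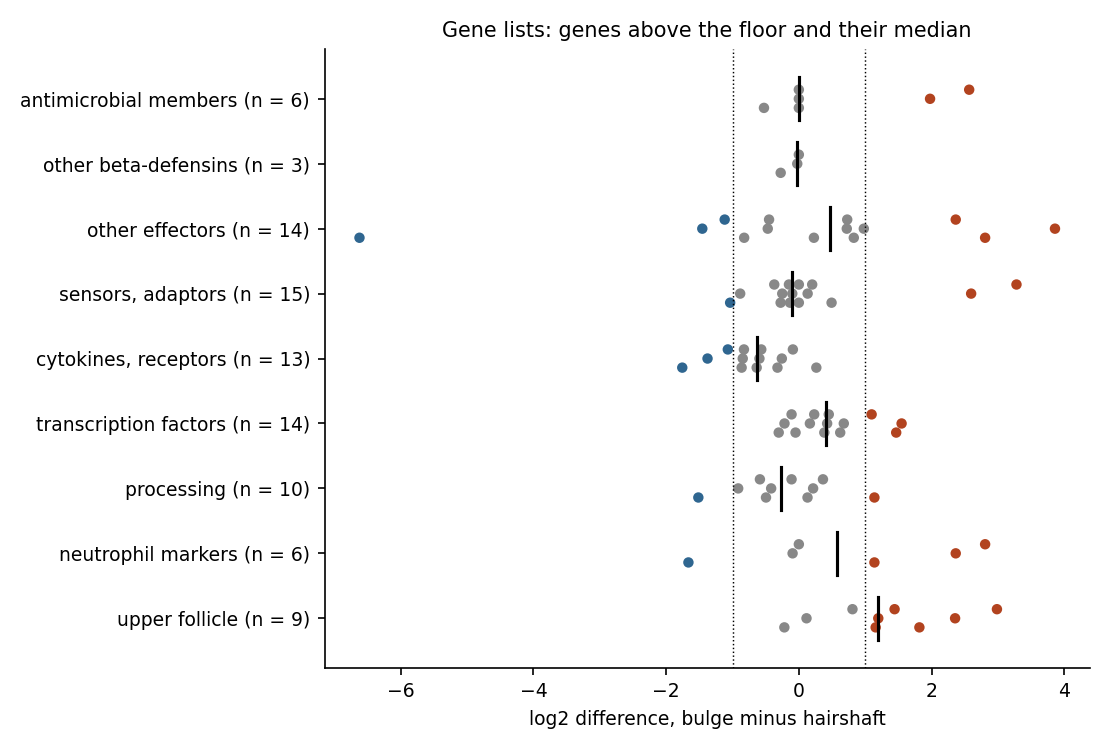
Log2 difference, bulge minus hairshaft (horizontal axis), of each gene above the floor in 9 lists, 1 array per structure; black bars are list medians and dotted lines mark 2-fold, with genes past it coloured. The cytokine and receptor list lies mostly left of 0 (median -0.64) and the transcription factor list mostly right of it (median 0.41).

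Sensors of microbes and their adaptors were mostly close. Of 15 above the floor, 12 lay within 2-fold, 2 differed by more towards the bulge and 1 towards the hairshaft, and the median difference was -0.10. Lbp, which passes bacterial lipopolysaccharide to its receptor, had 6.97 in bulge RNA and 3.69 in hairshaft RNA, a log2 difference of 3.28. The mean of its probe sets gave 1.64, since its other probe set had the same value, below the floor, on both arrays. Tirap, an adaptor of toll-like receptors, had 5.41 in bulge RNA and 2.81 in hairshaft RNA, a log2 difference of 2.60 (1.20 under the stricter floor and also when its probe sets were averaged). Myd88, the main adaptor of these receptors, had 8.05 in bulge RNA and 9.09 in hairshaft RNA, 2.05-fold higher in the hairshaft. With an offset of 16 its log2 difference was -0.99. Traf6, a ligase in the same pathway, had 6.76 in bulge RNA and 7.65 in hairshaft RNA, under 2-fold apart. The receptors Tlr2, with 4.38 in bulge RNA and 4.51 in hairshaft RNA, and Tlr4, with the same 4.36 on both arrays, were within 2-fold.

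The measured cytokines that induce antimicrobial genes, and their receptors, leaned to the hairshaft. Of 22 genes listed, 16 were measured, and Il17c, Il17f, Il22, Il36a, Il36b and Il36g were not. Most of those above the floor were receptor chains, and the cytokines among them were Tnf, Il18, Il1a and Il1b. Of 13 above the floor, 10 lay within 2-fold and the other 3 differed by more towards the hairshaft, and the median difference was -0.64, beside 0 for all genes. Il22ra1, a receptor chain for interleukin-22, had 5.94 in bulge RNA and 7.69 in hairshaft RNA, 3.38-fold higher in the hairshaft. Il18, a cytokine stored by keratinocytes, had 10.50 in bulge RNA and 11.57 in hairshaft RNA, 2.10-fold higher in the hairshaft (log2 -0.97 with a loess trend removed). Tnf had 3.61 in bulge RNA and 4.99 in hairshaft RNA, 2.60-fold higher in the hairshaft, but its log2 difference was -0.78 under the stricter floor and -0.76 with the offset. Il17rc, a subunit of the interleukin-17 receptor, had 8.95 in bulge RNA and 9.81 in hairshaft RNA. Its log2 difference was -0.86, but its only plain probe set had the same value, below the floor, on both arrays. The interleukin genes Il17a and Il6 and the interferon gene Ifng were equal and below the floor. Macrophage and dendritic cell markers mostly differed in the same direction, and their part in it was not tested. Of 10 measured, all above the floor, 1 differed by 2-fold or more towards the hairshaft and 0 towards the bulge, the median difference was -0.50, and the summed linear signal was 13404 in bulge RNA and 19665 in hairshaft RNA. H2-Eb1, a class II antigen-presenting chain, had 6.09 in bulge RNA and 11.47 in hairshaft RNA on its only probe set. The other class II pathway genes listed were closer, with log2 differences of -0.43 for H2-Ab1 and -0.18 for Cd74. Csf1r, a macrophage receptor, had 10.04 in bulge RNA and 11.01 in hairshaft RNA. Cd163 and Cd68 of this list went towards the bulge, with log2 differences of 0.98 and 0.31.

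Transcription factors of antimicrobial genes leaned the other way. Of 14 above the floor, 11 lay within 2-fold and the other 3 differed by more towards the bulge, and the median difference was 0.41. Cebpd, a factor of acute responses, had 9.14 in bulge RNA and 7.59 in hairshaft RNA, 2.93-fold higher in the bulge. The mean of its probe sets gave log2 0.77, since its other probe set had the same value, below the floor, on both arrays. Nfkbiz encodes a nuclear partner of NF-kB that Lcn2 is known to need for its induction in mouse cells. It had 10.85 in bulge RNA and 9.38 in hairshaft RNA, 2.77-fold higher in the bulge (log2 0.96 with the mean of its probe sets). Egr1, an immediate early gene, was 2.14-fold higher in the bulge, with 11.56 in bulge RNA and 10.46 in hairshaft RNA. Cebpb had 11.65 in bulge RNA and 10.97 in hairshaft RNA, and Rela, the NF-kB subunit itself, had 8.84 in bulge RNA and 8.95 in hairshaft RNA, both under 2-fold apart.

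Proteases that mature or degrade the peptides, and their inhibitors, were mostly under 2-fold apart (8 of 10 above the floor, median -0.26). Klk5 and Klk7 are kallikreins that process cathelicidin in the outer epidermis. Klk5 had 12.07 in bulge RNA and 12.49 in hairshaft RNA, and Klk7 had 12.06 in bulge RNA and 12.97 in hairshaft RNA. Klk8 was 2.86-fold higher in the hairshaft, with 10.34 in bulge RNA and 11.86 in hairshaft RNA. Ctsg, a granule protease, had 4.002 in bulge RNA and 2.86 in hairshaft RNA, 2.20-fold higher in the bulge. This was lost under the stricter floor, below which both values lay. Adam17, a sheddase, had 9.90 in bulge RNA and 10.49 in hairshaft RNA, under 2-fold apart.

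Lcn2, S100a8 and S100a9 are also neutrophil genes. Of 13 neutrophil markers measured besides the members, 6 were above the floor, and the list's summed linear signal was 1490 in bulge RNA and 437 in hairshaft RNA. S100a8 and S100a9 set that direction. The other 11 markers summed to 110 in bulge RNA and 204 in hairshaft RNA, the opposite direction, and Mmp9 alone set it. The granule genes Mpo, Elane and Ngp, the collagenase Mmp8 and the receptor Csf3r were below the floor with equal values on both arrays, as Ltf and Pglyrp1 were. Prtn3 and Chil3 were also below it on both. Cxcr2 had 2.27 in bulge RNA and 2.77 in hairshaft RNA. Mmp9, a gelatinase, had 5.53 in bulge RNA and 7.20 in hairshaft RNA, 3.17-fold higher in the hairshaft. Ctsg, also of this list, was 2.20-fold higher in the bulge, which was lost under the stricter floor.

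Upper follicle genes mostly differed towards the bulge, as Defb6, the bulge markers and the hair shaft keratins did. The part of upper follicle cells in the Defb6 difference was not tested. Of 9 upper follicle markers, all above the floor, 6 differed by 2-fold or more towards the bulge, beside 11.4% of all genes above the floor. Their median difference was 1.20, and their summed linear signal was 42333 in bulge RNA and 17171 in hairshaft RNA. Krt79, a keratin of the follicle canal, had 13.54 in bulge RNA and 11.19 in hairshaft RNA, a log2 difference of 2.36, so Defb6 exceeded it by 0.21. Gata6, a factor of the sebaceous duct, had 6.45 in bulge RNA and 3.47 in hairshaft RNA, a log2 difference of 2.99 (1.54 with the mean of its probe sets). Klk10 was 3.52-fold and Lrig1 2.72-fold higher in the bulge, but the only plain probe set of Lrig1 was below the floor on both arrays. Lgr6 went the other way, with a log2 difference of -0.22. Sostdc1 had a log2 difference of 0.12 (0.73 with the mean of its probe sets).

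Genes of muscle, fat and sebaceous gland were also higher on the bulge array, and their part in the Defb6 and Lcn2 differences was not tested. All 11 skeletal muscle markers differed by 2-fold or more, with a summed linear signal of 187620 in bulge RNA and 118 in hairshaft RNA. Acta1, the actin of skeletal muscle, had 15.15 in bulge RNA and 3.11 in hairshaft RNA. On the hairshaft array Acta1 was near the floor and Defb6 had 11.74, and the part of muscle in either Defb6 value was not tested. All 8 fat cell markers measured also differed by 2-fold or more towards the bulge (57502 in bulge RNA and 207 in hairshaft RNA, summed). So did 8 of 9 sebaceous gland markers (51563 in bulge RNA and 6227 in hairshaft RNA, summed). Suprabasal epidermis genes were mostly within 2-fold. Of 9 markers, 1 differed by 2-fold or more towards the hairshaft and 0 towards the bulge, with a median difference of -0.11 (0.06 with a loess trend removed) and a summed linear signal of 185361 in bulge RNA and 199905 in hairshaft RNA. Involucrin (Ivl) had 10.71 in bulge RNA and 12.11 in hairshaft RNA, and filaggrin (Flg) had 11.70 in bulge RNA and 12.49 in hairshaft RNA. They moved in the direction of Wfdc21, Wfdc5, Klk7 and Klk8, and their part in those differences was not tested. Krt10 of the suprabasal epidermis had 15.33 in bulge RNA and 15.36 in hairshaft RNA, and Krt15 of basal and bulge cells had 13.99 in bulge RNA and 13.68 in hairshaft RNA.

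The differences of Defb6 and Defb1 kept their direction and their side of 2-fold under the 10 other settings tried. Defb6 ranged from 2.56 to 2.72 and Defb1 from -0.55 to -0.40 over these settings. Defb6 is far above every floor and has only a plain probe set, so most settings could not move it. Its value changed only with the offset, the loess trend removed and quantile normalization. Lcn2 ranged from 1.15 to 1.98 over the 9 that gave it a value, and it stayed above 2-fold in each.

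**Figure D5:**
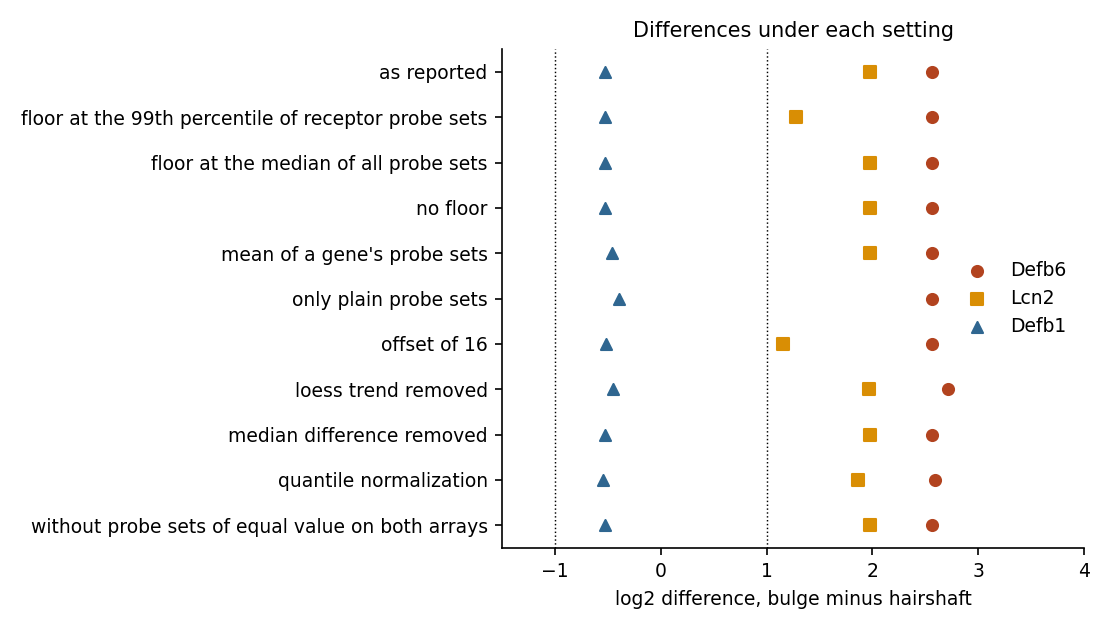
Log2 difference, bulge minus hairshaft (horizontal axis), of Defb6, Lcn2 and Defb1 as reported and under 10 alternative settings; dotted lines mark 2-fold. Defb6 lies between 2.56 and 2.72 and Lcn2 between 1.15 and 1.98, with no Lcn2 point for plain probe sets, of which it has none.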

How the data were processed

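Expression was measured on 2 arrays, 1 for each structure. The authors deposited log2 probe-set values made with GCRMA, which corrects background and summarises the probes of a set, per the submitters' processing notes (version and settings not given in the sources used here). Their range, 2.23 to 15.36, set the log2 scale. The array medians were 3.53 for bulge and 3.47 for hairshaft. All columns were used (0 unmatched). A platform annotation gave 34958 of 45101 probe sets 1 symbol, 932 several and 9211 none; 34754 symbols were renewed by Entrez identifier. A gene took its probe set with the highest mean. The members and gene lists were chosen with earlier results of these data known. Genes named from a list are its up to 4 largest differences above the floor; S100a8, S100a9, Krt10, Krt15 and Acta1, and beta-defensins above the floor, were added, and the other genes named were chosen after their values were seen. No test was run, since 1 array per structure leaves 0 residual degrees of freedom, so no SD is given. The counting step was tested on simulated data. The software was numpy 2.4.6, pandas 2.3.3, matplotlib 3.10.9 and statsmodels 0.14.6 under Python 3.11.15. In 9 other settings were changed the floor, the probe set, an offset on the linear scale or the scaling, and 1 more setting was added after seeing the data. Peptide sequences were not analysed here.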

Additional observations from a re-analysis of the deposited data

How the results depend on the processing

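Of 252 values recomputed under the alternatives, 244 stayed within 1.5-fold of the reported difference or 1.5 times the reported count, and 8 moved. A change of direction was counted only for reported differences of 2-fold or more, and there were 0. Among these values only those of Defb6 and Lcn2 could be so counted, and most settings could not move Defb6. The 252 values are those of the members and the list counts, and include the 7 members of equal value, which the settings could hardly move. Single genes of the lists were not among them, and several of those moved, as given above. The log2 difference of Lcn2 was 1.28 with the 99th percentile floor and 1.15 with the offset of 16. With only plain probe sets the count of members at least 2-fold higher in the bulge was 1, because Lcn2 has no plain probe set. The count of sensors higher in the hairshaft was 0 with the offset, where Myd88 lost its 2-fold difference. The count of processing genes higher in the bulge was 0 with the 99th percentile floor, the median floor and the offset, where Ctsg lost it. The count of transcription factors higher in the bulge was 1 with the mean of probe sets, leaving Egr1. The cause was not tested otherwise. Leaving out probe sets of equal value, an alternative chosen after seeing the data, moved no value by this measure. No paired analysis was possible because each structure has 1 array. Signal over background limits the 7 members of equal value, for which no difference can be read.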
